A study of Mus musculus with 217 samples.

Results

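The 10 genes described here are Fos, Fosb, Fosl2, Jun, Junb, Egr1, Atf3, Cebpb, Cebpd and Klf6, a set of immediate early transcription factors taken by name from the 52550 genes in the deposited counts. The rule lists names and uses no measured value, although the members were chosen with earlier results of these data known. All 10 passed the low-count filter in every comparison. RNA bound to HA-tagged ribosomes was pulled from brain, lung and heart of adult RiboTagEC mice (Cdh5CreERT2/+; Rpl22HA/+) on the C57BL/6J background and sequenced, to ask how endothelial cells (ECs) of the 3 tissues differ at rest and during inflammation. In these mice a tamoxifen-inducible Cre under the Cdh5 (VE-cadherin) promoter turns on an HA tag on the ribosomal protein Rpl22, so the ribosomes of ECs can be captured from whole tissue without sorting cells. Mice of every group, controls included, carried both alleles and had received 4 gavages of 5 mg tamoxifen on alternate days from 4 to 6 weeks of age. Mice were injected intraperitoneally with 10 mg per kg of the bacterial endotoxin lipopolysaccharide (LPS) and sampled 6, 24, 48, 72 or 168 hr later, and the 0 hr group is labelled as control and, by the study's methods, received PBS. Brain and heart each had 5 libraries at 0 hr, 5 at 6 hr, 4 at 24 hr, 6 at 48 hr and 4 each at 72 and 168 hr, and lung had 4, 4, 2, 6, 4 and 4 libraries at the same times.

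Immediate early genes are transcribed within minutes of a stimulus by factors that are already present in the cell, such as SRF, CREB and NF-kappaB, and their messages are usually short-lived. FOS and JUN proteins pair through leucine zippers to form AP-1, the zinc finger factors Egr1 and Klf6 bind GC-rich sites, Atf3 is a stress-induced CREB family member that restrains inflammatory genes, and Cebpb and Cebpd drive cytokine and acute phase genes. In endothelium, LPS signals through TLR4 to the MAP kinases and NF-kappaB, and AP-1 and C/EBP sites lie in promoters of adhesion molecules, chemokines and coagulation factors.

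The promoters of the members are shown because promoters of immediate early genes are known to hold sites for the factors that such signals act on. RefSeq promoters on GRCm38.p6, running from 250 bases before to 50 bases after the start of the transcript, were searched for 8 of the 10 members (Fos, Fosb, Fosl2, Jun, Junb, Atf3, Cebpb and Klf6). Egr1 and Cebpd were not among the windows searched, so nothing is said of their promoters. Capitals mark TGACG, the core of the cAMP response element, in either direction, and matches to the NF-kappaB site. The Fos window lies at chr12:85473640-85473939 (plus strand), that of Fosl2 at chr5:32136222-32136521 (plus strand), that of Junb at chr8:84978699-84978998 (minus strand), that of Atf3 at chr1:191183284-191183583 (minus strand) and that of Cebpb at chr2:167688665-167688964 (plus strand).
Fos: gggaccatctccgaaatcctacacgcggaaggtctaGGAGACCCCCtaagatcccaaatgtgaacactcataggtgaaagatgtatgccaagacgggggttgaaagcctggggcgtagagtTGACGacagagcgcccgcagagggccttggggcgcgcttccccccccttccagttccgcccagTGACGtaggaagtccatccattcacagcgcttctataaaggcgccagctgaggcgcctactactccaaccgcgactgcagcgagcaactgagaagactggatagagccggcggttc
Fosl2: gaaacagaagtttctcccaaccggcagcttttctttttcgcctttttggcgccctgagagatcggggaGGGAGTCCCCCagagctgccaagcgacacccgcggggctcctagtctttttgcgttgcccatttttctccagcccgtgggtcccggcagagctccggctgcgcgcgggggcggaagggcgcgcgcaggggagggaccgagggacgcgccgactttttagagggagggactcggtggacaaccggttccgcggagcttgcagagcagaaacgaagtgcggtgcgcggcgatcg
Junb: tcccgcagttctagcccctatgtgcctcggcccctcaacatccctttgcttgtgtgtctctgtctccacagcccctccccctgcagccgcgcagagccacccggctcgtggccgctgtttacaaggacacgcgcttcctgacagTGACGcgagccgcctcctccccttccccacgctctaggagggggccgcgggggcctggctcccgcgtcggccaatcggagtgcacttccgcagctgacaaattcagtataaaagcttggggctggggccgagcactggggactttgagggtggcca
Atf3: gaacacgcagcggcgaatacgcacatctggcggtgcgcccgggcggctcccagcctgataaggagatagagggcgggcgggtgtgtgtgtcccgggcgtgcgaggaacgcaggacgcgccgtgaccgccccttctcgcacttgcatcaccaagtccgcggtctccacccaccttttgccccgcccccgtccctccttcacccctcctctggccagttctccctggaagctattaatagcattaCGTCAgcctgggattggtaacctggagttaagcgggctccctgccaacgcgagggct
Cebpb: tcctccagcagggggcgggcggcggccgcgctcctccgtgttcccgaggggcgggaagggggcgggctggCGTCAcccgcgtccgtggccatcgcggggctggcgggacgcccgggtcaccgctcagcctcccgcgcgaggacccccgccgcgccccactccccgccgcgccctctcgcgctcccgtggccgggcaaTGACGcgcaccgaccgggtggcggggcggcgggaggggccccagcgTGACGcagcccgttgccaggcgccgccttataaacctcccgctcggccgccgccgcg

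TGACG was present on either strand in 5 of the 8 windows (Fos, Fosb, Junb, Atf3 and Cebpb), and in 20.8% of 32817 mouse promoters of the same length. In Fos it occurred at -129 to -125 and at -66 to -62 relative to the start site, in Junb at -106 to -102, in Atf3 at -7 to -3 and in Cebpb at -180 to -176, -53 to -49 and -7 to -3. A match to the NF-kappaB site was present in Fos (-214 to -205), Fosb (-188 to -179) and Fosl2 (-182 to -172, a pair of overlapping matches), against 8.46% of all promoters. The TATA box string TATAAA was present in Fos (-33 to -28), Junb (0 to 5) and Cebpb (21 to 26), against 13.6% of all promoters. Only that of Fos lay before the start site. The full element TGACGTCA (1.79% of all promoters, and overlapping TGACG wherever it occurs), the AP-1 site TGACTCA (5.2%), the CArG box (1.63%) and the STAT site TTCNNNGAA (8.29%) were in none of the 8 windows. A match is a string of letters and says nothing of binding in these tissues. Sites further from the start than these windows were not searched.

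On GRCm38, with the GENCODE M21 annotation, Jun lies at chr4:95049034-95052222 (minus strand), Cebpb at chr2:167688915-167690418 (plus strand) and Cebpd at chr16:15887286-15891031 (plus strand), each a single exon. The other members have 2 to 5 exon blocks. Some exon bases are shared with a gene on the opposite strand for Jun (232 of 3189, with Junos), Junb (173 of 2301, with Prdx2), Cebpb (312 of 1504, with Tmem189) and Cebpd (562 of 3746, with Spidr). Whether the reads were counted by strand is not given in the sources used here, so reads on these stretches cannot be told apart.

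The 80 libraries used held 284457 to 43417945 counts on genes. Levels below are CPM, counts divided by the TMM-scaled library size. The labels do not say which libraries come from separate mice, so p-values measure the spread between these libraries. Tests between tissues treat libraries as independent, although tissues may come from the same mouse. Library series 1, 2 and 4, read from the pattern of the deposited file names, enter every fit as a covariate, since the labels name no batch. Series 4 has no library at 0 or 6 hr, so its level against 0 hr rests on the covariate, and each 6 hr group has 1 library of series 1.

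Some libraries went against their labels. Over 500 genes chosen without the library in question, on a scale where the mean of the 0 hr libraries is 0 and that of the other 6 hr libraries is 1, replicate 6 of brain at 6 hr lay at 0.00889 and replicate 5 of heart at 6 hr at 0.0233. The other 6 hr libraries lay at 0.904 to 1.37 in brain and at 1.08 to 1.38 in heart. The acute phase gene Saa3 was at 0.957 CPM in that heart library, against 764 to 1169.6 CPM in the other 4. Replicate 4 of lung at 6 hr held 284457 counts, with 68.6% of them on Gm42418, a gene that overlaps ribosomal RNA sequence, and a count of 0 for Fosb, Fosl2, Junb, Egr1, Atf3 and Klf6. Gm42418 was also high in other lung libraries, which were kept in every fit named here. Its share was 28.5%, 51.4% and 4.41% in replicates 1 to 3 at 6 hr. It was 57.6% and 24.5% in replicates 1 and 2 at 48 hr and 32.4% in replicate 1 at 72 hr. The median was 6.90% in lung, and the highest share was 0.698% in brain and 1.62% in heart. Replicate 4 of lung at 0 hr resembled replicates 2, 4 and 5 of lung at 168 hr in the levels of Jun and Cebpb. It was also like them in the share of Gm42418, at 0.934% against 0.397%, 1.68% and 0.274%. That share was 15.5%, 15.6% and 10.2% in replicates 1 to 3 at 0 hr and 17.1% in replicate 1 at 168 hr. Reads on genes made up 56.2% in replicate 4 at 0 hr and 18.8% to 28.6% in replicates 1 to 3. The part of library quality in these levels was not tested. In lung the scale separated the times less well, with replicates 1 to 4 at 6 hr at 0.690, 0.539, 0.363 and -0.190 and replicate 2 at 0 hr at 0.386. Replicate 3 of lung at 6 hr thus lay below a 0 hr library on this scale, and over all genes it correlated at 0.931 with the mean of 0 hr and at 0.751 with that of the other 6 hr libraries. Saa3 was nevertheless at 19915 CPM in replicate 3, against 2.89 to 97.1 CPM in lung at 0 hr. Mt2 was at 5659 CPM there, against 8.52 to 24.4 CPM. Ccl2, at 13.9 CPM, lay within its 0 hr range of 0.863 to 24.9 CPM. The members' main results are given with and without the libraries that stand apart. The 3 that stand apart at 6 hr are each the only series 1 library of their group.

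The endothelial label was checked with 9 markers, among them Cdh5, Pecam1 and Kdr. Their summed level at 0 hr was 10239.5 to 11594 CPM in heart, 8349.5 to 12206 in lung and 1236 to 2582 in brain. Markers of the surrounding cells were present too. In brain at 0 hr the 10 neuronal markers summed to 1519 to 6064 CPM and 5 markers of astrocytes and oligodendrocytes to 601 to 3719 CPM, in heart the 9 cardiomyocyte markers summed to 3013 to 6054 CPM, and in lung 5 epithelial markers summed to 3013 to 5912 CPM. In whole-tissue pull-downs of this kind, fewer cells of a type and less RNA per cell cannot be told apart.

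At rest, the members were spread over more than 2 orders of magnitude in lung and heart, and over less in brain, in CPM per kb of exon, the scale on which genes can be set side by side. Fosb was the lowest member in every tissue, at 0.822 ± 0.322 (mean ± SD, n = 5) in brain, 0.432 ± 0.317 (n = 4) in lung and 0.334 ± 0.189 (n = 5) in heart. The highest member differed by tissue. It was Jun in brain (30.3 ± 6.79 CPM per kb, n = 5), Cebpb in lung (298 ± 187, n = 4) and Klf6 in heart (90.7 ± 25.9, n = 5). In brain, Egr1 (25.0 ± 18.7) and Klf6 (16.2 ± 8.39) followed Jun, with libraries that overlapped it. Jun in lung averaged 165 ± 178 CPM per kb, an SD above the mean.

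**Figure D1:**
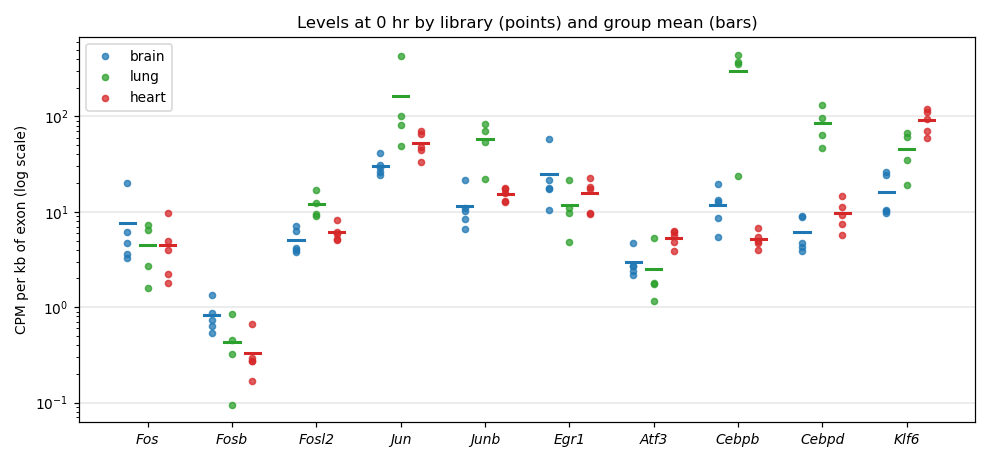
Levels of the 10 members at 0 hr in CPM per kb of exon on a log axis, with points for libraries and bars for group means in brain (5 libraries), lung (4) and heart (5). Cebpb, Cebpd and Junb are highest in lung and Klf6 in heart, and Fosb is the lowest member in each tissue. The lung library at 36.0 CPM of Cebpb lies well below the other 3.

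Between tissues at rest, the members with the widest differences were the C/EBP genes, which were higher in lung. Cebpb, a bZIP factor of the acute phase response, was at 668, 558, 532 and 36.0 CPM in the 4 lung libraries, at 8.23, 7.11, 7.46, 5.97 and 10.3 CPM in the 5 of heart and at 20.0, 8.28, 19.0, 29.4 and 12.8 CPM in the 5 of brain. Every lung library lay above every library of the other tissues, although replicate 4 came close to those of brain. The log2 difference was 5.89 ± 0.64, adjusted p = 3.62e-06, for lung against heart and -4.77 ± 0.61, adjusted p = 8.74e-06, for brain against lung (log2 fold change ± SE; edgeR's quasi-likelihood test with Benjamini-Hochberg adjustment over all genes, here and below). Cebpd, its close relative, was at 174, 237, 498 and 360.0 CPM in lung, against 21.4 to 54.9 CPM in heart and 14.4 to 33.9 CPM in brain. Its groups did not overlap between lung and the other tissues, with log2 differences of 3.20 ± 0.33, adjusted p = 2.48e-06, against heart and -3.94 ± 0.34, adjusted p = 2.09e-07, for brain against lung. Without replicate 4 of lung the differences between lung and heart were 6.25 for Cebpb and 3.00 for Cebpd, and those between brain and lung -5.13 and -3.74. Replicate 4 was set apart by its levels of Jun and Cebpb. The shifts of Cebpb here and of Jun below therefore follow from that choice. That fit also drops the lung library of 0 hr with the highest share of reads on genes (56.2%).

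Of the AP-1 genes at rest, Junb, a JUN protein that limits the activity of its relative Jun, was at 163, 125, 191 and 50.3 CPM in lung, 29.4 to 41.2 CPM in heart and 15.1 to 49.7 CPM in brain. All lung libraries were above all brain and heart libraries. Jun itself was at 157, 257, 325 and 1370.4 CPM in lung, 107 to 223 CPM in heart and 77.3 to 133 CPM in brain. Replicate 4 of lung, which was low for Cebpb, was far above the rest for Jun, and without it the log2 difference of Jun moved from 1.59 to 0.54 for lung against heart (adjusted p = 0.0441) and from -2.45 to -1.36 for brain against lung. Fosl2, a FOS protein without the transactivation domain of Fos, was at 86.5 to 164 CPM in lung, 49.0 to 80.1 CPM in heart and 36.3 to 68.0 CPM in brain.

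Klf6 and Atf3 had their highest group means in heart. Klf6, a zinc finger factor known from vascular injury, was at 409, 260.1, 492, 523 and 308 CPM in heart, 83.2, 154, 265 and 295 CPM in lung and 108, 115, 45.8, 45.0 and 42.5 CPM in brain. Every heart library exceeded every brain library, and the heart and lung ranges overlapped. Klf6 was lower in brain than in heart by a log2 difference of -2.62 ± 0.41, adjusted p = 6.78e-05, and Atf3 by one of -0.99 ± 0.34, adjusted p = 0.0214. Fos, Fosb and Egr1 did not pass the test between any pair of tissues, and their 0 hr ranges in brain (7.69 to 47.0, 3.31 to 8.46 and 47.3 to 259 CPM) overlapped those of lung and heart.

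In all, 6 of the 10 members were lower in brain than in lung (Fosl2, Jun, Junb, Cebpb, Cebpd and Klf6), as were 26.4% of the 17730 genes tested. Against heart, 2 members were lower in brain (Atf3 and Klf6), as were 22.8% of genes. Lung exceeded heart in 5 members (Fosl2, Jun, Junb, Cebpb and Cebpd), as it did in 29.9% of genes, and was below it in 2 (Atf3 and Klf6), with 31.2% of genes. Without replicate 4 of lung, Fosb and Atf3 were also called between brain and lung, higher in brain by 1.41 and 0.79 on the log2 scale. The Atf3 call between brain and heart was lost when replicate 1 or 5 of brain, or 4 or 5 of heart, was left out, and Klf6 was the only member called without either of those brain libraries. The Klf6 call between lung and heart was lost without replicate 1 or 2 of lung or 1, 3, 4 or 5 of heart. Gained calls were Egr1 between brain and lung without replicate 3 of lung, Fosb between brain and heart without replicate 4 of heart, and Cebpd between brain and heart without replicate 3 or 4 of brain or 2 or 5 of heart.

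In heart, all 10 members rose at 6 hr after LPS, as did 22.4% of the 16024 genes tested. The median log2 fold change of the members was 2.79, beside -0.05 over all genes tested. The C/EBP genes changed most. Cebpb was at 8.23, 7.11, 7.46, 5.97 and 10.3 CPM at 0 hr and at 997, 509.6, 846, 456 and 8.29 CPM at 6 hr. The first 4 of the 6 hr libraries lay far above all 0 hr libraries, and replicate 5 lay within their range. The fitted log2 fold change was 6.18 ± 0.79, adjusted p = 1.23e-05, a 72.7-fold difference. Cebpd was at 34.9, 21.4, 54.9, 42.1 and 28.2 CPM at 0 hr and at 2147, 1642, 956, 1066 and 63.3 CPM at 6 hr, with no overlap even for replicate 5, which was the lowest of its group. Its log2 fold change was 4.98 ± 0.71, adjusted p = 2.75e-05.

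Among the FOS genes in heart, Fosl2 had the largest change at 6 hr. It was at 59.4, 49.0, 56.4, 80.1 and 50.7 CPM at 0 hr and at 1439, 1151, 873, 639 and 57.3 CPM at 6 hr, a log2 fold change of 3.81 ± 0.51, adjusted p = 1.84e-05. Replicate 5 again lay within the 0 hr range and the other 4 far above it. Fos, the founding member of the family and a common marker of recent stimulation, was at 11.6, 9.39, 4.23, 22.9 and 5.30 CPM at 0 hr and at 73.8, 48.0, 32.1, 58.8 and 3.38 CPM at 6 hr, a log2 fold change of 1.94 ± 0.58, adjusted p = 0.0106. Its lowest 6 hr library, replicate 5, was below every 0 hr library. Fosb, best known from neurons, stayed at 2.10 to 9.38 CPM at 6 hr against 1.04 to 4.12 CPM at 0 hr, and its call (log2 fold change 1.08 ± 0.42, adjusted p = 0.0402) was lost without replicate 1, 2, 3 or 5 of the 0 hr group or replicate 1 or 4 of the 6 hr group.

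Of the JUN genes in heart, Junb was at 36.5, 29.7, 41.2, 29.4 and 39.8 CPM at 0 hr and at 747, 581, 579.9, 378 and 36.3 CPM at 6 hr, a log2 fold change of 3.63 ± 0.49, adjusted p = 1.80e-05. Jun, the transactivating partner of Fos, was at 107, 143, 211, 223 and 151 CPM at 0 hr and 437, 516, 214, 363 and 257 CPM at 6 hr, a log2 fold change of 1.00 ± 0.20, adjusted p = 0.000705. Jun, among the most abundant members at rest, had the smallest fold change of the members, with 6 hr libraries that overlapped those of 0 hr. Of the remaining factors, Atf3 was at 12.2, 10.5, 8.32, 13.1 and 13.7 CPM at 0 hr and at 204, 210.1, 195, 137 and 18.6 CPM at 6 hr, a log2 fold change of 3.76 ± 0.45, adjusted p = 8.97e-06. Its 6 hr libraries were all above those of 0 hr, replicate 5 included. Egr1, a zinc finger factor induced by growth factors and shear stress, was at 42.4 to 102 CPM at 0 hr and, apart from replicate 5 at 31.8 CPM, at 259 to 566 CPM at 6 hr (1.84 ± 0.42, adjusted p = 0.00192). Klf6 was at 260.1 to 523 CPM at 0 hr and, apart from replicate 5 at 483 CPM, at 724 to 1546 CPM at 6 hr (1.31 ± 0.28, adjusted p = 0.00129).

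Groups of 0 and 6 hr did not overlap for 2 members in heart, Atf3 and Cebpd, as was the case in the same direction for 2.61% of 22007 genes. Without replicate 5, all 10 members were again called higher, as were 27.8% of genes, with log2 fold changes from 0.99 for Jun to 6.66 for Cebpb. Within library series 2 alone, 9 members were called higher. Other cell markers moved with this comparison in heart. The 9 neutrophil markers summed to 0.574 to 0.909 CPM at 0 hr and to 37.5 to 58.5 CPM at 6 hr, except 0.510 CPM in replicate 5, and all 5 tested were higher. The endothelial sum was 3656 to 6154 CPM at 6 hr and 10642 CPM in replicate 5, with 8 of 9 markers lower. Their part in the members' changes was not tested.

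**Figure D2:**
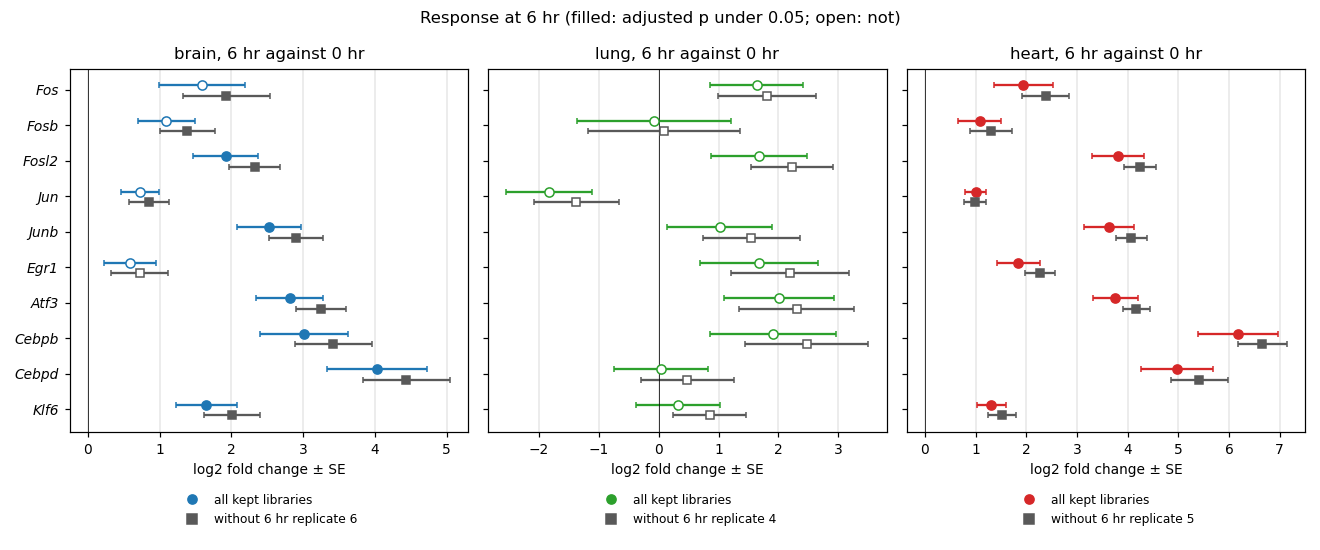
Log2 fold changes ± SE of the 10 members at 6 hr against 0 hr in brain, lung and heart from the edgeR fit, over all kept libraries (circles) and without the 6 hr library that stands apart (squares), with filled symbols for an adjusted p under 0.05 and a separate horizontal scale in each panel. All 10 members are filled in heart and none in lung, and in brain the number filled goes from 6 to 9 without replicate 6.

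In brain, 6 members rose at 6 hr (Fosl2, Junb, Atf3, Cebpb, Cebpd and Klf6), as did 4.21% of the 19234 genes tested. The members' median log2 fold change was 1.79, beside 0.0039 over all genes. Cebpd was at 17.6, 15.9, 33.9, 32.9 and 14.4 CPM at 0 hr and at 410.2, 577, 472, 373 and 41.7 CPM at 6 hr. All 6 hr libraries were above those of 0 hr, although replicate 6, the last value, was close to them. Its log2 fold change was 4.03 ± 0.69, adjusted p = 0.000649. Cebpb was at 20.0, 8.28, 19.0, 29.4 and 12.8 CPM at 0 hr and at 213, 239, 179, 108 and 21.4 CPM at 6 hr, a log2 fold change of 3.01 ± 0.61, adjusted p = 0.00268. As in heart, only the library that stands apart lay within the 0 hr range.

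Of the AP-1 genes in brain, Junb was at 15.1, 23.3, 25.2, 49.7 and 19.4 CPM at 0 hr and at 176, 272, 186, 170.1 and 28.6 CPM at 6 hr, a log2 fold change of 2.53 ± 0.45, adjusted p = 0.000805. Fosl2 was at 40.7, 61.0, 36.3, 68.0 and 38.6 CPM at 0 hr and at 188, 321, 157, 148 and 34.4 CPM at 6 hr, a log2 fold change of 1.92 ± 0.45, adjusted p = 0.00901. For both genes the first 4 libraries at 6 hr cleared the 0 hr range. The Fosl2 call was lost with limma-voom (adjusted p = 0.0551) and with no series covariate (adjusted p = 0.0831). Fos was at 8.53, 14.5, 11.1, 47.0 and 7.69 CPM at 0 hr, where replicate 4 stood apart from the rest, and at 42.6, 155, 47.6, 63.0 and 11.6 CPM at 6 hr, and its log2 fold change of 1.59 ± 0.60, adjusted p = 0.126, did not pass the test. Fosb (1.10 ± 0.39, adjusted p = 0.102) and Jun (0.73 ± 0.26, adjusted p = 0.105) did not pass either. Fos passed without replicate 4 of the 0 hr group (log2 fold change 2.33, adjusted p = 0.0437).

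Atf3 in brain was at 5.83, 10.2, 5.20, 5.82 and 4.65 CPM at 0 hr and at 52.4, 80.8, 39.3, 24.7 and 7.55 CPM at 6 hr, a log2 fold change of 2.81 ± 0.47, adjusted p = 0.000478. Klf6 was at 108, 115, 45.8, 45.0 and 42.5 CPM at 0 hr and at 125, 225, 161, 145 and 108 CPM at 6 hr, with a log2 fold change of 1.65 ± 0.43, adjusted p = 0.0176. The Klf6 ranges overlapped, since replicates 1 and 2 of the 0 hr group were high, and the call was lost without replicate 2 of the 6 hr group and with no series covariate. Egr1 was at 47.3, 78.4, 79.1, 259 and 96.6 CPM at 0 hr and at 202, 382, 165, 222 and 69.3 CPM at 6 hr, which did not pass the test (0.59 ± 0.36, adjusted p = 0.431).

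Without replicate 6 of brain at 6 hr, 9 members were called higher, all but Egr1, as were 7.63% of genes. Fos then had a log2 fold change of 1.93, Fosb one of 1.39 and Jun one of 0.86. The 6 members called over all libraries had larger fold changes in that fit, at 4.44 for Cebpd, 3.42 for Cebpb, 3.25 for Atf3, 2.90 for Junb, 2.33 for Fosl2 and 2.00 for Klf6. Over all libraries only Cebpd had 6 hr libraries wholly above those of 0 hr, against 1.04% of genes. Neutrophil markers in brain summed to 5.56 to 52.6 CPM at 0 hr and 6.94 to 391 CPM at 6 hr, with none of 7 called, and neuronal markers to 2565 to 7963 CPM at 6 hr, with none of 10 called. Of the 9 endothelial markers, Tek, Tie1, Egfl7 and Kdr were lower and Cdh5 higher, and their sum was 1236 to 2582 CPM at 0 hr and 1061 to 1786 CPM at 6 hr. Of the 5 markers of astrocytes and oligodendrocytes, Aldh1l1 was higher. The part of these shifts in the members' values was not tested.

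In lung, no member passed the test at 6 hr, where 2.56% of the 17058 genes tested were higher and 2.27% lower. At an unadjusted p under 0.05 there were 4 members, and DESeq2 called 3 higher (Fos, Fosl2 and Atf3, with log2 fold changes of 2.17, 1.98 and 2.52). Fos was at 3.77, 6.39, 15.1 and 17.0 CPM at 0 hr and at 53.2, 26.2, 22.1 and 28.9 CPM at 6 hr. These groups did not overlap, although replicate 4 rests on 1 count, which is worth 28.9 CPM in that library. The same held upwards for 0.727% of genes, and the edgeR log2 fold change of Fos was 1.64 ± 0.78, adjusted p = 0.200. Fosl2 was at 91.9, 119, 164 and 86.5 CPM at 0 hr and at 469, 303 and 725 CPM in replicates 1 to 3 at 6 hr, with a count of 0 in replicate 4 (1.67 ± 0.80, adjusted p = 0.202). Cebpb was at 668, 558, 532 and 36.0 CPM at 0 hr and at 444, 693, 5539 and 202 CPM at 6 hr (1.91 ± 1.05, adjusted p = 0.270). A single 6 hr library, replicate 3, was above the 0 hr range for Cebpb by a wide margin.

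Jun had the lowest fold change of the members in lung at 6 hr. It was at 157, 257, 325 and 1370.4 CPM at 0 hr and at 182, 33.5, 176 and 28.9 CPM at 6 hr, a log2 fold change of -1.83 ± 0.72, adjusted p = 0.125. Without replicate 3 at 6 hr it was called lower (-2.29, adjusted p = 0.0199), the only member called in any fit that left out 1 lung library at this time. Cebpd, at 174, 237, 498 and 360.0 CPM at 0 hr, was at 259, 99.0, 599 and 144 CPM at 6 hr (0.04 ± 0.78, adjusted p = 0.986). Junb was at 149, 128 and 604 CPM in replicates 1 to 3 at 6 hr, against 50.3 to 191 CPM at 0 hr. Neither gene separated the groups.

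Without replicate 4 of lung at 6 hr, and without both lung libraries that stand apart, the count of members called in lung was again 0, with log2 fold changes from -0.95 to 2.61 in the latter fit. The median over all genes was itself -0.42 in lung, against 1.33 over the members. Neutrophil markers in lung summed to 28.9 to 202 CPM at 0 hr and 1801 to 3732 CPM in replicates 1 to 3 at 6 hr, with 5 of 8 called higher. The 9 cardiomyocyte markers summed to 30.8 to 116 CPM at 0 hr and 106 to 2182 CPM at 6 hr, with 3 called higher, and the endothelial sum was 1458 to 6089 CPM. The 5 epithelial markers summed to 3013 to 5912 CPM at 0 hr and 462 to 18634 CPM at 6 hr. The 8 macrophage markers summed to 295 to 750 CPM at 0 hr and 28.9 to 3598 CPM at 6 hr. The part of these shifts in the lung values was not tested.

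**Figure D3:**
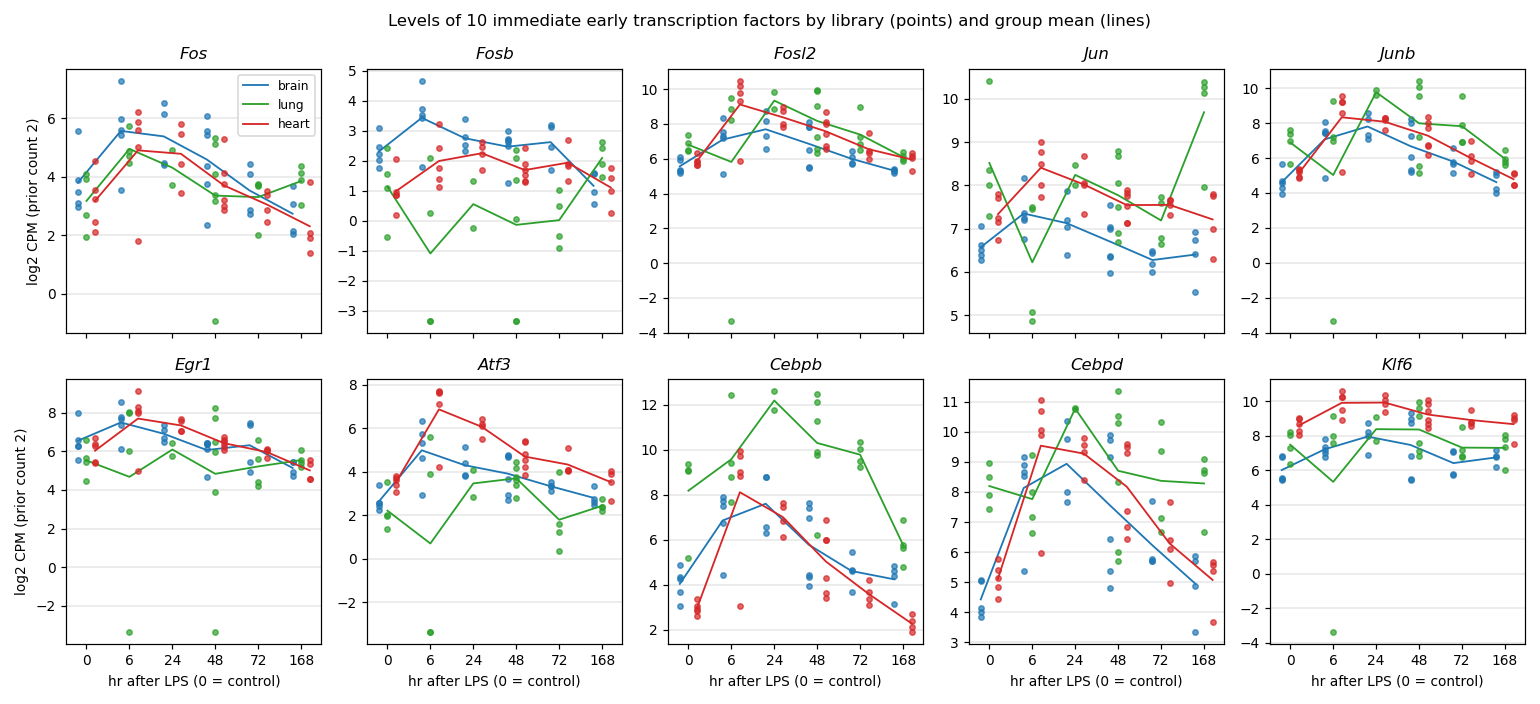
Levels of the 10 members by hour after LPS in log2 CPM, with points for libraries and lines for group means in brain, lung and heart. Libraries with a count of 0 sit at -3.35. The heart and brain means are highest at 6 or 24 hr for every member and lower at 168 hr, and the lung points are spread widely at 6 and 48 hr.

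The responses of the tissues were then compared directly, as the difference of the log2 fold changes at 6 hr in a single fit of all 3 tissues. Lung responded less than heart for 4 members, Jun (-3.29 ± 0.61, adjusted p = 0.000168), Junb (-2.81 ± 0.86, adjusted p = 0.0166), Cebpb (-4.20 ± 1.10, adjusted p = 0.00512) and Cebpd (-5.14 ± 1.04, adjusted p = 0.000411), as did 11.2% of the 22007 genes tested. Brain responded more than lung for Jun (3.02 ± 0.61, adjusted p = 0.000560) and Cebpd (4.15 ± 1.02, adjusted p = 0.00408), beside 7.54% of genes. In lung at 6 hr, Gm42418 held 28.5%, 51.4%, 4.41% and 68.6% of counts in replicates 1 to 4. Its highest share was 0.698% in brain and 1.62% in heart. Replicate 4 of lung had no count of Junb, and Cebpb in replicate 3 lay above its 0 hr range. The part of library quality in these differences from lung was not tested. Brain and heart did not differ past the threshold for any member (0.636% of genes in either direction), with 2 members at an unadjusted p under 0.05 and none called by DESeq2.

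Without the libraries that stand apart, lung fell short of heart for 5 members, Fosl2 (-2.22) being added, and brain exceeded lung for Jun and Cebpd again (1.94 and 4.42). The Jun difference between lung and heart was then -2.09. That fit still kept replicates 1 and 2 of lung at 6 hr, with their high shares of Gm42418. Brain then fell short of heart for Fosl2 (-1.93) and Cebpb (-3.07), beside 2.13% of genes. With limma-voom, Junb and Cebpb were not called between lung and heart. At 48 hr no member differed in response between tissues, with 3.54%, 0.463% and 1.13% of genes called for brain minus lung, brain minus heart and lung minus heart, and 3, 1 and 2 members at an unadjusted p under 0.05. DESeq2 and limma-voom called none at 48 hr either, whereas Cebpd differed between brain and lung without the libraries that stand apart (2.84, adjusted p = 0.0293).

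At 24 hr in heart, 7 members were still higher than at 0 hr (Fosl2, Junb, Egr1, Atf3, Cebpb, Cebpd and Klf6), beside 9.07% of genes. For the same 7 genes, all 4 libraries at 24 hr lay above all 5 at 0 hr, as held for 14% of 22007 genes. Cebpd was at 335, 757, 649 and 897 CPM, a log2 fold change of 3.65 ± 0.69, adjusted p = 0.00203, against 0 hr. Cebpb was at 69.0, 114, 177 and 199 CPM (3.54 ± 0.72, adjusted p = 0.00361) and Junb at 194, 309, 284 and 312 CPM (2.57 ± 0.48, adjusted p = 0.00195). Atf3 was at 84.6, 45.3, 69.2 and 74.1 CPM (2.26 ± 0.44, adjusted p = 0.00271). Fos (10.6, 21.4, 43.7 and 55.9 CPM), Fosb (4.62, 5.47, 3.10 and 6.06 CPM) and Jun (161, 259, 265 and 412 CPM) did not pass at 24 hr. Without replicate 2 at 24 hr the count was 4, since Fosl2, Egr1 and Klf6 were lost, and without replicate 4 at 0 hr Fosb was added. The Egr1 call was also lost without replicate 1, 3, 4 or 5 at 0 hr or replicate 1, 4 or 5 at 24 hr, and that of Klf6 without replicate 2, 3 or 5 at 0 hr or replicate 1 or 4 at 24 hr. Without series 4, which holds replicates 4 and 5 at 24 hr, 4 members were called (Junb, Atf3, Cebpb and Cebpd). Beside these calls in heart, 4 of the 5 neutrophil markers tested were higher, with a sum of 8.35 to 30.7 CPM against 0.574 to 0.909 CPM at 0 hr, and 2 of 8 macrophage markers were higher. Of the endothelial markers 1 of 9 was lower (sum 8709.6 to 11117 CPM), and of the cardiomyocyte markers 2 of 9 were lower (sum 1677 to 3324 CPM). Their part in the members' levels was not tested.

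In brain at 24 hr, 4 members were higher than at 0 hr (Fosl2, Junb, Cebpb and Cebpd), beside 6.52% of genes. Cebpd was at 201, 254, 861 and 1311 CPM (3.39 ± 0.72, adjusted p = 0.00408), Junb at 136, 157, 307 and 382 CPM (2.47 ± 0.47, adjusted p = 0.00201) and Cebpb at 78.2, 94.5, 445 and 437 CPM (2.74 ± 0.65, adjusted p = 0.00935). Fosl2 was at 157, 92.4, 290.1 and 437 CPM, and its call (1.55 ± 0.50, adjusted p = 0.0455) was lost without replicate 1, 2, 3 or 5 at 0 hr or any single replicate at 24 hr. Replicates 4 and 5 of brain at 24 hr, the series 4 libraries of the group, were the highest for each of these 4 genes. Without series 4, Junb and Cebpd were called, and Cebpb (2.31, adjusted p = 0.0887) and Fosl2 (1.27, adjusted p = 0.237) were not. All libraries lay above those of 0 hr for 6 members, these 4 with Atf3 and Klf6, against 9.17% of genes. The neuronal markers summed to 889.6 and 1088 CPM in replicates 4 and 5 and to 1532 and 6113 CPM in replicates 1 and 2. The 6 markers of fibroblasts, pericytes and smooth muscle summed to 1455 to 4458 CPM, against 1184 to 2483 CPM at 0 hr. The part of either list in the members' levels was not tested.

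Lung at 24 hr had 2 libraries, and no member passed the test (0.363% of genes higher, 1 member at an unadjusted p under 0.05, none by DESeq2). Cebpb was nevertheless at 6294 and 3468 CPM, Cebpd at 1726 and 1772 CPM, Junb at 959.7 and 791 CPM and Fosl2 at 459 and 914 CPM. For these 4 genes both libraries were above all 0 hr libraries, as held for 10.4% of genes. The fitted log2 fold change of Cebpb was 3.37 ± 1.27, adjusted p = 0.532.

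Between 6 and 24 hr, no member passed the test in any tissue, with 2.92% of genes lower at 24 hr in heart, 0.0260% in brain and 0% in lung. At an unadjusted p under 0.05 there were 5 members in heart, 1 in brain and 0 in lung, and DESeq2 called none in brain or lung. In heart this rested on replicate 5 at 6 hr. Without it, 7 members fell from 6 to 24 hr, as did 15.2% of genes. Cebpb then had a log2 fold change of -3.18, Fosl2 of -2.26, Atf3 of -2.02, Cebpd of -1.83, Fos of -1.63, Junb of -1.54 and Egr1 of -1.05. DESeq2 over all libraries called Cebpb, Fosl2 and Atf3 lower, and without replicate 4 at 6 hr edgeR called Cebpb alone. In brain, Atf3 fell (-2.02, adjusted p = 0.00804) without replicate 6, beside 0.494% of genes.

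**Figure D4:**
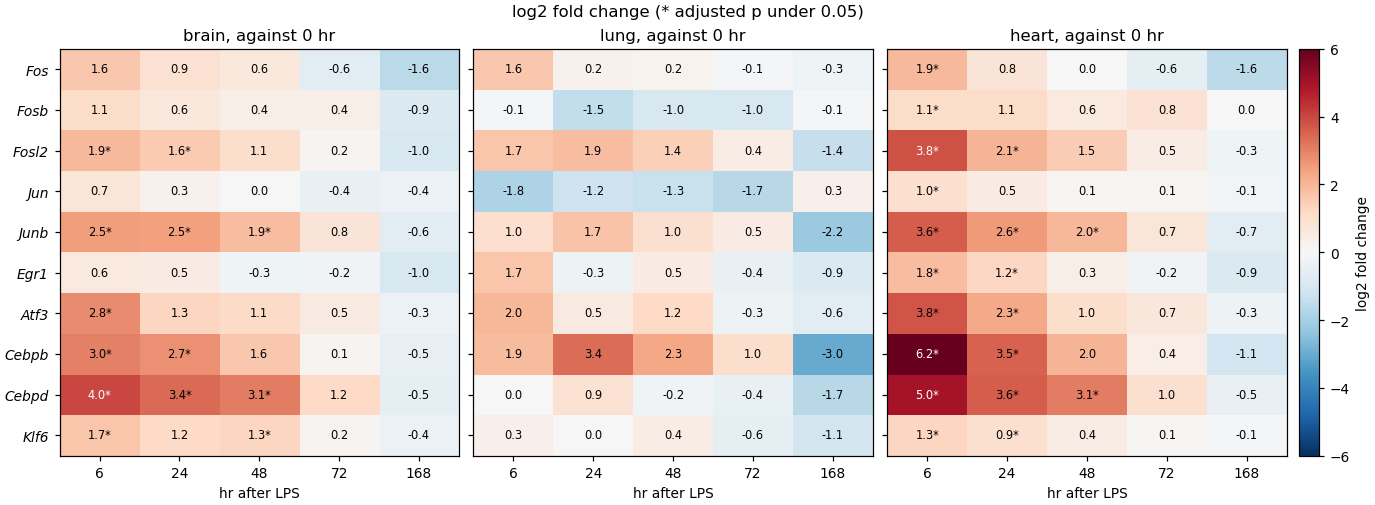
Log2 fold changes of the 10 members (rows) at 6, 24, 48, 72 and 168 hr against 0 hr (columns) in brain, lung and heart, from red (higher) to blue (lower), with an asterisk for an adjusted p under 0.05 in edgeR. Junb and Cebpd have an asterisk from 6 to 48 hr in brain and heart, and no member has one in lung or at 72 and 168 hr.

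At 48 hr, Junb and Cebpd were still higher than at 0 hr in both brain and heart. In heart they were the only members called, beside 3.08% of genes, with log2 fold changes of 2.00 ± 0.45, adjusted p = 0.0108, and 3.06 ± 0.67, adjusted p = 0.00917. In brain Klf6 was called too, beside 8.11% of genes, with log2 fold changes of 1.86 ± 0.45, adjusted p = 0.00893, for Junb, 3.08 ± 0.72, adjusted p = 0.00691, for Cebpd and 1.30 ± 0.43, adjusted p = 0.0439, for Klf6. The 6 libraries at 48 hr were far apart. Cebpd in heart had a lowest value of 87.4 CPM, a median of 395 and a highest of 780.2, and in brain 27.9, 329 and 954 CPM. In every tissue the 3 highest libraries for Cebpd were replicates 3, 6 and 7, and replicates 1, 2 and 4 were the lowest. Klf6 in brain was split in the same way, with 45.0, 42.2, 638, 112, 509 and 433 CPM in replicates 1, 2, 3, 4, 6 and 7.

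The low replicates 1 and 2 belong to series 2, the high replicates 6 and 7 to series 4, and series 1 holds a high and a low library, replicates 3 and 4. Series and the order of the libraries thus coincide in 4 of 6 cases, and their part cannot be told apart. Without series 4, no member was called in heart at 48 hr, where Junb had an adjusted p of 0.0836 and Cebpd one of 0.0669, and Cebpd alone was called in brain. Within series 1 or series 2 alone, no member was called at 48 hr in brain or heart. The 8 macrophage markers in heart summed to 196, 338, 37.7, 153, 57.5 and 42.1 CPM in replicates 1, 2, 3, 4, 6 and 7, against 44.3 to 74.6 CPM at 0 hr, and 3 were called higher. All 5 neutrophil markers tested in heart were higher too, with a sum whose median was 23.6 CPM and highest 42.2 CPM. The 6 markers of fibroblasts, pericytes and smooth muscle in heart summed to 745 to 1472 CPM, against 305 to 569 CPM at 0 hr. In brain at 48 hr, 5 of 8 macrophage and 3 of 7 neutrophil markers were higher. The part of these markers in the members' spread was not tested. For 5 members in heart (Fosl2, Junb, Atf3, Cebpb and Cebpd) even the lowest library at 48 hr exceeded all of 0 hr, as was true of 3.04% of genes. For no member was this so in brain (2.14% of genes). Leaving out replicate 1 or 2 at 48 hr in brain raised the count called to 5, with Atf3 and Cebpb added, and Cebpb was also added without replicate 4. In heart, leaving out replicate 2 raised the count to 4, with Fosl2 and Cebpb added, and Fosl2 was also added without replicate 1. The Klf6 call in brain was lost without any 1 of the 0 hr libraries and without replicate 3, 6 or 7 at 48 hr.

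**Figure D5:**
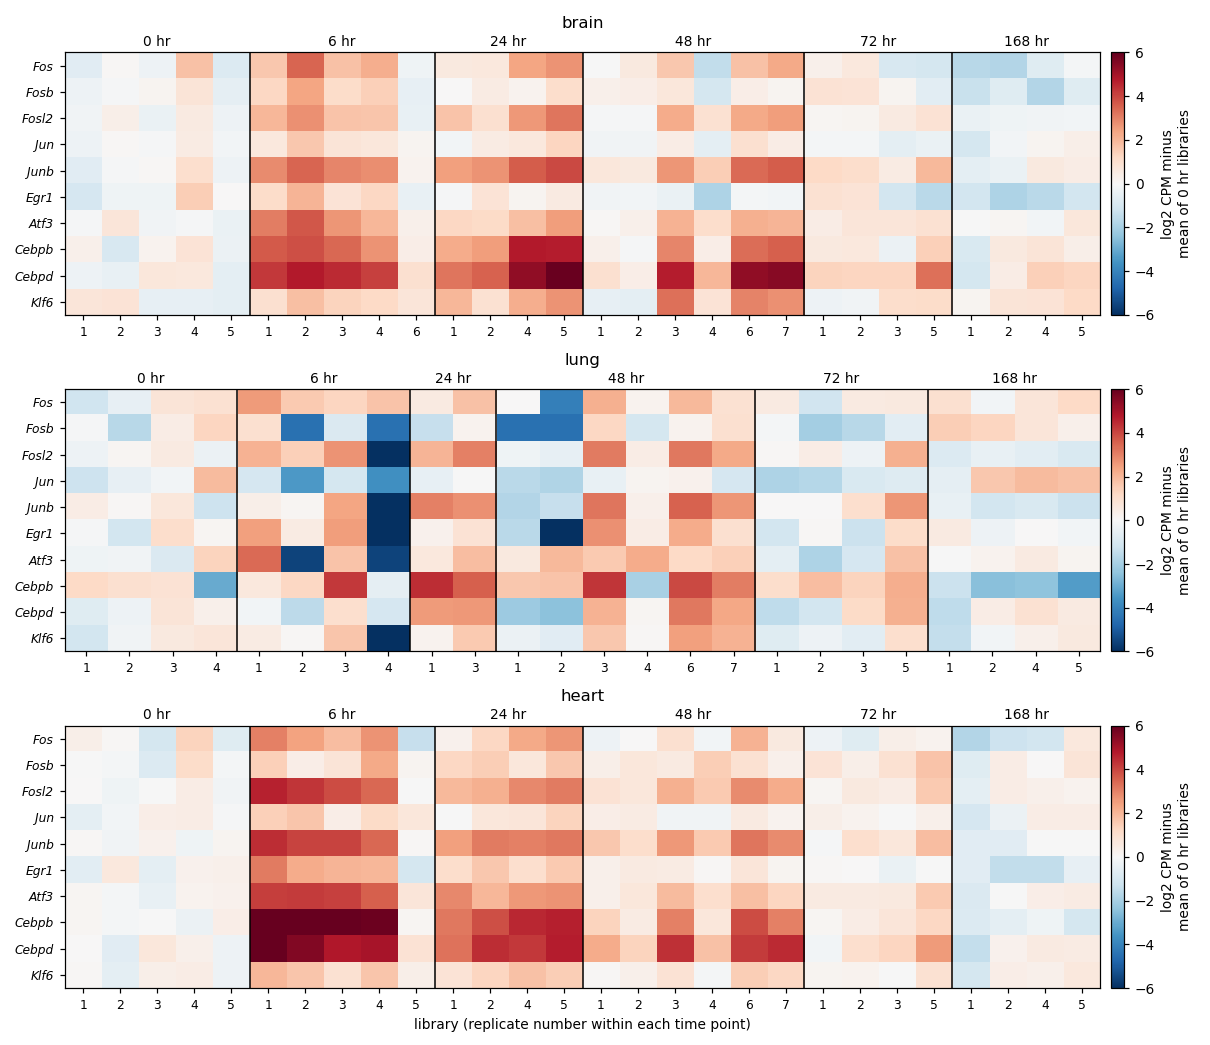
Difference of each library's log2 CPM from the mean of the 0 hr libraries of its tissue, for the 10 members (rows) and all kept libraries (columns, by time and replicate) of brain, lung and heart. Replicate 6 of brain and replicate 5 of heart at 6 hr are pale like the 0 hr libraries, and at 48 hr replicates 3, 6 and 7 are darker red than replicates 1, 2 and 4 for Cebpd in each tissue.

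In lung at 48 hr no member was called (0.428% of genes higher, 2 members at an unadjusted p under 0.05, none by DESeq2). Cebpb in lung ran from 74.9 to 5750.2 CPM, with a median of 1714, and Cebpd from 52.4 to 2633 CPM, with a median of 794. The range of Cebpd enclosed that of 0 hr, and the range of Cebpb went past that of 0 hr upwards. Without the libraries that stand apart, 0 members were called in lung at each time from 24 to 168 hr.

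By 72 hr no member passed the test in any tissue, with 2.98% of genes being higher for brain, 0.170% for lung and 0.275% for heart, and 1 member, in lung, at an unadjusted p under 0.05. DESeq2 called none at 72 or 168 hr. Cebpd in brain was at 55.1, 51.8, 51.8 and 209 CPM, all above the 0 hr libraries, as held for 3.81% of genes. Atf3 in heart was at 16.6, 16.5, 16.9 and 34.4 CPM, also above all 0 hr libraries (1.69% of genes). In both, replicate 5, the only series 4 library of its group, was well above the other 3 libraries.

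At 168 hr no member passed either, where 0% of genes were called in brain or heart and 0.0117% of genes were lower in lung. At an unadjusted p under 0.05 there were 2 members in brain, 2 in lung and 1 in heart. Fosb (1.85, 2.91, 1.36 and 2.87 CPM) and Egr1 (43.8, 26.4, 30.3 and 44.1 CPM) in brain lay below every 0 hr library, as did 0.654% of genes. In lung, Fosl2 (63.2, 83.1, 72.3 and 58.5 CPM) lay below all libraries of 0 hr, against 1.55% of genes. Cebpb in lung was at 118, 50.4, 53.7 and 28.0 CPM and Jun at 249, 1121, 1347 and 1233 CPM, where replicates 2, 4 and 5 combined low Cebpb with high Jun, as replicate 4 of lung at 0 hr did. These were also the lung libraries of 0 and 168 hr with low shares of Gm42418, whose part was not tested. The largest negative fitted value of any member at 168 hr was that of Cebpb in lung (-3.05 ± 1.13, adjusted p = 1.000).

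The other genes of the pathway were counted from lists of AP-1 partners, C/EBP genes, immediate early regulators, MAPK feedback and mRNA decay genes, and the MAPK cascade. In heart at 6 hr, 8 of the 12 other AP-1 and bZIP partners tested rose and none fell, beside 22.4% of all genes tested that rose. The largest were Batf (3.79 on the log2 scale), which pairs with JUN proteins, Nfil3 (3.34), a bZIP repressor, and Atf5 (1.69). Of 3 other C/EBP genes, Cebpa (1.11) and Ddit3 (0.88) rose. Among 19 other immediate early regulators, 11 rose and 2 fell, with Myc (5.32), Csrnp1 (3.84) and Ier3 (3.32) the largest. The median log2 fold changes of these 3 lists were 1.22, 0.88 and 0.88.

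Genes that switch off MAPK signals or destabilise early messages moved in heart at 6 hr as well, with 8 of 14 higher and 3 lower. Gadd45b, a stress sensor, changed by 5.40, and the MAPK phosphatases Dusp5 and Dusp2 by 4.24 and 3.82 on the log2 scale. Of 12 genes of the MAPK cascade, 5 rose and 3 fell, among them Mapkapk2 (2.09), a kinase downstream of p38, Map2k6 (-2.02), a kinase upstream of it, and Mapk3 (-1.57), which encodes ERK1.

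In brain at 6 hr, where 4.21% of all genes rose, 3 of 12 AP-1 and bZIP partners rose (Batf 2.79, Nfil3 2.07, Mafk 1.56), none of 3 other C/EBP genes passed, and 6 of 20 immediate early regulators rose and 1 fell. Myc (2.62), Csrnp1 (2.58) and Ier3 (2.27) led these too. Of 14 feedback and decay genes 7 rose, led by Dusp2 (4.45), Spry1 (2.34), an inhibitor of receptor tyrosine kinase signalling, and Zfp36 (2.30), which binds AU-rich elements and speeds decay. Of 12 cascade genes Map2k3 (1.43) and Mapkapk2 (0.86) rose and Elk3 (-0.96), an ETS factor that works with SRF, fell. Without replicate 6 of brain, 4, 1, 8, 7 and 2 genes of these 5 lists were higher, beside 7.63% of all genes, and without replicate 5 of heart the 5 lists had 8, 2, 11, 9 and 6 genes higher there, beside 27.8%.

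Lung at 6 hr had 1 gene higher in each of 3 lists, Nfil3 (4.99) of 12, Myc (4.49) of 19 and Dusp2 (3.69) of 14. Id3 (-2.13), Mapk3 (-2.73) and Elk3 (-2.49) fell. Without both lung libraries that stand apart, 1 gene was again higher in each of these 3 lists, beside 2.31% of all genes. At 24 hr in heart, 4 of 12 AP-1 partners, 5 of 19 immediate early regulators and 5 of 14 feedback genes were higher, beside 9.07% of all genes, and in brain 2 of 12, 4 of 20 and 2 of 14, beside 6.52%.

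In brain all 10 members, and in heart all but Jun, varied more among libraries of a group than the median gene of similar level. The biological coefficient of variation of the edgeR fit in brain was 0.460 for Fosl2, 0.580 for Cebpb and 0.634 for Cebpd, beside medians of 0.216, 0.213 and 0.253 over genes within 0.5 log2 CPM of each. In heart it was 0.647 for Cebpb (median 0.250) but 0.234 for Jun (median 0.260). The median over all genes was 0.288 in brain, 0.323 in heart and 0.712 in lung, where Atf3 (0.710) stood beside a median at its level of 0.700. These fits keep the libraries that stand apart. Without them the value in brain was 0.348 for Fosl2, 0.506 for Cebpb and 0.544 for Cebpd, and in heart 0.407 for Cebpb and 0.225 for Jun (medians 0.214 and 0.218), and 10 members in brain, 10 in heart and 9 in lung were then above the median of their level. Over the 18 means of tissue and time, which share tissues and libraries, the genes with the pattern most like Fos among 10381 compared were Csf3 (r = 0.83), Cxcl5 (r = 0.83), Ccl5 (r = 0.82), Mt2 (r = 0.80) and Dennd4a (r = 0.80). Those most like Atf3 were Rnf19b (r = 0.96), Pafah1b1 (r = 0.93), Osmr (r = 0.93), Slc25a25 (r = 0.93) and Irak2 (r = 0.93), and those most like Cebpd were Sbno2 (r = 0.93), Dusp2 (r = 0.92), Ifrd1 (r = 0.92), Plaur (r = 0.92) and Pym1 (r = 0.91). Among the members themselves, Fosl2 and Junb were the pair most alike (r = 0.96, n = 18 means). With the means taken without the libraries that stand apart, 1 of the 5 genes most like Fos, 2 of those most like Atf3 and 3 of those most like Cebpd remained among the 5, and Cebpd and Junb (r = 0.96) were the pair most alike, ahead of Fosl2 and Junb (r = 0.95).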

How the data were processed

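Reads from an Illumina HiSeq instrument were aligned by the authors to mm10 with STAR 2.4.2 and counted per gene with HTSeq 0.6.1, per the labels and the submitters' processing notes, and the deposited values are raw counts per sequencing run, with no normalization. Rows for reads on no gene or on several entered no library size or test and served to compute each library's share of reads on genes. The 217 runs were summed to 98 libraries by tissue, time and replicate, and 18 libraries with under 3% of reads on genes (155176 to 1330479 counts) were left out. All of these belong to file-name series 3.

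The counts were fitted with edgeR 4.0.16 in R 4.3.3. Low-count genes were removed by filterByExpr, libraries scaled by TMM, and two-sided quasi-likelihood F tests run with library series as covariate and Benjamini-Hochberg adjustment over all genes tested (threshold 0.05), in 1 fit per tissue, 1 of the 0 hr libraries and 1 of all tissues for the difference of responses. The standard error is the absolute log2 fold change over the root of the F statistic. Levels are CPM, with a prior count of 2 on the log2 scale. Per-kb levels use exon bases of GENCODE M21, which may not be the authors' release. In simulated counts a log2 change of 2 was recovered for 98% of genes in heart, 99% in brain, 90% in lung and 46% for the difference of lung and heart. A log2 change of 1 was recovered for 36%, 40%, 14% and 6%. The simulated spread was the same in every tissue and lay below the median biological coefficient of variation fitted in lung (0.712). It also lay below the values of every member but Jun in brain, and of every member but Jun and Klf6 in heart. The shares that involve lung are therefore too high for these data. Those of brain and heart are too high for most of the members.

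Alternatives were DESeq2 1.42.0, limma-voom (limma 3.58.1), RLE scaling, no low-count filter, no series covariate, the replicate number as block, all 98 libraries, series 1 or 2 alone and each library left out. Total count scaling and the fits without the libraries that stand apart or without series 4 were chosen after seeing the data. The members and gene lists were chosen with earlier results of these data known. All 10 members are named everywhere, with up to 3 genes per list past the threshold by size at 6 hr (mean log2 CPM of at least 1) and the 5 genes most like Fos, Atf3 and Cebpd. Replicate numbers did not pair libraries within a tissue. Motifs and tables were made in Python 3.11.15 with pandas 2.3.3.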

Additional observations from a re-analysis of the deposited data

Results flagged for a closer look

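Within groups of 4 to 10 libraries, a member's highest or lowest library stood apart from the others by Dixon's test in 22 of 170 groups examined, and 19 of the 22 were low. Chance gives about 5% for a single group. The members are measured in the same libraries, so the groups are not independent and the pooled count cannot be set against that share. All values here are in log2 CPM, where a count of 0 is -3.35. Replicate 5 of heart at 6 hr was the low one for Fos (1.80), Fosl2 (5.84), Junb (5.19), Egr1 (4.99), Atf3 (4.23), Cebpb (3.07) and Cebpd (5.99). Replicate 6 of brain at 6 hr was low for Junb (4.84) and Cebpd (5.39). Replicate 4 of lung at 6 hr was low for Fosl2 (-3.35) and Klf6 (-3.35), both at a count of 0, and replicate 4 of lung at 0 hr for Cebpb (5.17).

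The other low libraries were replicate 2 of lung at 48 hr for Fos (-0.95) and Egr1 (-3.35), replicate 2 of lung at 72 hr for Fos (2.02), replicate 1 of lung at 168 hr for Jun (7.96), replicate 4 of brain at 48 hr for Fosb (1.27) and Egr1 (4.70), and replicate 1 of heart at 168 hr for Cebpd (3.67). The 3 high ones were replicate 2 of brain at 0 hr for Atf3 (3.37), replicate 5 of heart at 72 hr for Atf3 (5.11) and replicate 5 of brain at 72 hr for Cebpd (7.71), the latter 2 being series 4 libraries.

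The responses at 6 hr differed between tissues, by the interaction test in edgeR, for Jun (3.02 on the log2 scale) and Cebpd (4.15) between brain and lung, and for Jun (-3.29), Junb (-2.81), Cebpb (-4.20) and Cebpd (-5.14) between lung and heart. All of these involve the lung libraries of 6 hr that were high in Gm42418.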

How the results depend on the processing

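Of 5040 alternative values of 270 member fold changes, 4791 kept their side of the threshold, 124 lost the call, 120 gained one and 5 reversed. A change of sign was counted as a reversal only where either fit passed the threshold. The 4791 can thus include changes of sign between fits that both missed it. All 5 reversals were within series 1 alone, where the lone 6 hr library of each tissue is the one that stands apart. They were Fosl2 (-0.63), Atf3 (-0.15) and Klf6 (-0.11) in brain at 6 hr, and Fos (-1.60) and Egr1 (-1.16) in heart at 6 hr. Within series 1 the count of members called was 0 at 6, 24 and 48 hr in brain and heart. Within series 2 it was 0 at 48 hr in both and 3 for heart 24 against 6 hr. The replicate numbers do not pair libraries (median correlation of same-numbered libraries within a tissue -0.0353 in brain, 0.0327 in lung and 0.00387 in heart; 5, 10 and 1 libraries of 28, 24 and 28 correlated best with their own number). Between tissues, same-numbered brain and heart libraries at 6 hr correlated at a median of 0.200, with 3 of 4 pairs over 0.1, against -0.00665 for different numbers, which is short of every pair. The fits between tissues treat libraries as independent. The replicate block has a term per number across all times, so it does not model a shared mouse either. With the replicate number as a block the counts were 2 for brain at 24 hr, 4 for heart at 24 hr, 0 for heart at 48 hr and 6 for brain against heart at 0 hr, and the other counts of members stayed within 1.5 times. DESeq2 called 6 members in brain at 48 hr, 3 in lung at 6 hr, 4 in heart at 48 hr, 3 for heart 24 against 6 hr and 4 for brain against heart at 0 hr. With no low-count filter the counts were 6 and 5 for brain and heart at 48 hr, 1 for brain at 72 hr, brain 24 against 6 hr, lung at 24 hr and lung at 168 hr, 4 for heart 24 against 6 hr and for brain against heart at 0 hr, 2 for brain minus heart at 6 hr and brain minus lung at 48 hr, and 1 for lung minus heart at 48 hr. With no series covariate they were 6 and 5 for brain and heart at 48 hr, 2 for heart 24 against 6 hr and 1 for brain against heart at 0 hr. With all 98 libraries they were 5 and 4 for brain and heart at 48 hr, 2 for heart 24 against 6 hr and 3 for lung against heart at 0 hr. Without series 4, a fit chosen after seeing the data, they were 2 for brain at 24 hr, 1 for brain at 48 hr, 4 for heart at 24 hr and 0 for heart at 48 hr. Limma-voom called 2 for lung minus heart at 6 hr. Without the 6 hr libraries of series 1, or without all that stand apart, the count was 2 for brain minus heart at 6 hr and 1 for brain minus lung at 48 hr. Leaving out 1 library gave 2 to 5 for brain at 48 hr, 0 to 1 for brain 24 against 6 hr and for lung at 6 hr, 4 to 7 for heart at 24 hr, 2 to 4 for heart at 48 hr, 0 to 7 for heart 24 against 6 hr and 1 to 3 for brain against heart at 0 hr, and was not run for the differences of responses. Apart from these cases of fewer libraries or more genes tested, the cause was not tested. Total count scaling shifted the median of all genes by -0.45 to 0.60 and RLE by up to 0.308 on the log2 scale, and no called member changed direction under either. Total count scaling ended the calls of Fosb (heart, 6 hr), Egr1 and Klf6 (heart, 24 hr), Atf3 (brain against heart) and Fosl2 and Jun (lung against heart), and RLE that of Klf6 (lung against heart). A count of 0 in the shallowest lung library allows up to 3 counts, so low members there were not detectable at this depth.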
